A study of Mus musculus with 6 samples.

Results

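The 10 genes described here are Zfp42, Klf2, Klf4, Klf5, Esrrb, Tfcp2l1, Nr0b1, Nr5a2, Prdm14 and Tcl1, a named group of regulators of naive pluripotency. They were found by gene symbol among the 24054 genes of each expression table, and all 10 were present. RNA-seq was performed on 3 populations from double knock-in (DKI) mouse ESCs, which carry Foxa2-Venus on 1 allele (heterozygous) and Sox17-Cherry on both (homozygous), so that all groups share these fusions. d0 are undifferentiated ESCs sorted as negative for both reporters on day 0. d3F are mesendoderm cells sorted on day 3 as Foxa2-Venus positive and Sox17-Cherry negative. d5FS are endoderm cells sorted on day 5 as positive for both. Differentiation was driven with 1 ng/ml Wnt3a and 10 ng/ml Activin A on gelatine. Each population has 2 replicates, 6 samples in all, which the study's methods describe as independent biological replicates. All samples carry the label of the same ESC line.

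Naive pluripotency is the state of the preimplantation epiblast, which mouse ESCs hold in culture with the cytokine LIF. A network of transcription factors (TFs) sustains it by activating its own members and the core factors Oct4 (Pou5f1), Sox2 and Nanog. LIF acts through Stat3, which drives Klf4 and Tfcp2l1, while inhibition of Gsk3 relieves Tcf7l1-mediated repression of Esrrb, Klf2 and Tfcp2l1. When cells leave the naive state this network is shut down first, and formative genes such as Fgf5 and Otx2 come up while Oct4 is still on. Of the 10 genes, Tcl1 encodes a co-activator of the kinase Akt rather than a DNA-binding factor, and Nr0b1 (Dax1) encodes a nuclear receptor that lacks the classical DNA-binding domain.

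The tables hold between 16457729 and 22768686 expected counts per sample. Levels of 1 gene across samples are given as CPM, expected counts scaled by the total of the sample, and levels of different genes are compared in TPM, which corrects for transcript length. A gene is said to have risen or fallen where edgeR's quasi-likelihood test, fitted to all 14539 genes that passed the filter on low counts, gave a Benjamini-Hochberg adjusted p under 0.05 and a log2 fold change beyond 1 in size. All 10 genes passed that filter. The ESC markers Pou5f1, Nanog and Sox2 summed to 1120 and 1720 CPM in d0 against 901 and 418 in d3F and 95.2 and 70.1 in d5FS. The definitive endoderm markers Foxa2, Sox17, Cer1 and Cxcr4 summed to at most 3.39 CPM in d0 against 149 and 157 in d3F and 439 and 704 in d5FS. Other cell types that can express some of the 10 genes were checked through their markers. The 6 trophoblast markers summed to 46 and 57.2 CPM in d0 (Elf5 at 0 in replicate 1), 20 and 19.5 on day 3 and 27.9 and 29.3 on day 5. Of the trophoblast sum, Tfap2c made up 34.1 and 48.8 CPM in d0. From d0 to d5FS Tfap2c and Cdx2 fell and Gata3 rose. The 6 germ cell markers share Dppa3 with the naive-state list and Tfap2c with the trophoblast list. Their sum went from 121 and 185 CPM to 33.5 and 28.2 and then 23.2 and 22.3. The 8 markers of fibroblast feeder cells summed to 11.6 and 13 CPM in d0, to 35 and 74.4 on day 3, and to 249 and 194 on day 5 (Lum at 0 in 4 of the 6 samples). Of the feeder markers, Col1a1, Col1a2, Col3a1 and Postn rose from d0 to d5FS, whereas Thy1, Dcn and Twist2 did not pass. Col1a2 alone had 117 and 155 CPM in d5FS, and Thy1 had 1.09 and 0.456. The 6 primitive endoderm markers summed to 26.8 and 36.2, then 43 and 71.5, and then 179 and 141 (Srgn at 0 in d0 replicate 2). Dab2, Pdgfra, Pth1r and Srgn rose from d0 to d5FS, and Sox7 and Lama1 did not pass. Of all tested genes 12.4% were called higher in that comparison. The part of these other cell types in the values of the 10 genes was not tested. The replicates 2 had more genes with at least 1 count (18343 to 19846) than the replicates 1 (16770 to 16970) in every population, and more histone-cluster RNA (49740 against 32130 CPM in d0). The study's sample list uses the words mRNA and total RNA for the 2 libraries of a population and does not tie them to the replicate numbers, and the part of library type in the results was not tested.

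Mean levels of all 10 naive-state genes were highest in d0, although the d0 and d5FS samples of Tfcp2l1 and Nr0b1 overlapped. Their CPM summed to 302.5 and 1035 in the d0 replicates, 73.57 and 44.35 in d3F, and 104.4 and 100.1 in d5FS. Zfp42 alone contributed 44.9% of that sum in each d0 sample. From d0 to d3F, 8 of the 10 fell and 0 rose, against 1.9% of all tested genes called lower and 2.8% called higher. All 10 had every d3F sample below every d0 sample, which 19.5% of tested genes did. From d0 to d5FS 8 of 10 fell as well, against a background of 10.4% lower (12.4% higher), and these 8 were also the ones whose samples did not overlap (background 27.3%). Both comparisons use the same d0 samples, so the second does not repeat the first independently. With the replicate number as a block 9 of 10 were called in each, among 3.51% and 13.6% of tested genes called lower. The median log2 fold change of the 10 was -3.33 from d0 to d3F and -3.04 from d0 to d5FS, where the medians of all tested genes were -0.01 and 0.02. As these are bulk samples, fewer cells with a transcript and less of it per cell cannot be told apart.

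**Figure D1:**
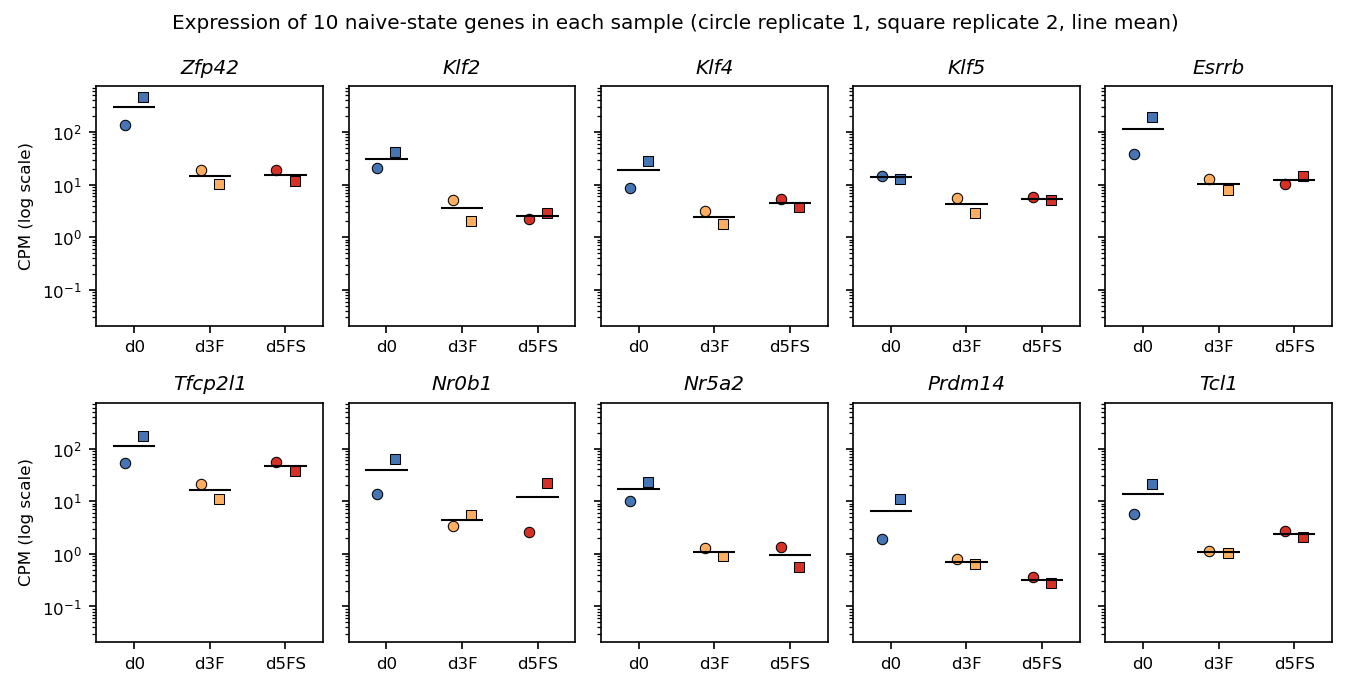
CPM on a log axis for each of the 10 naive-state genes in d0, d3F and d5FS, with circles for replicate 1, squares for replicate 2 and a line at the mean of the 2 samples. Every gene is highest on average in d0, the d0 samples lie apart for all genes except Klf5, and Nr0b1 in d5FS spans 2.55 to 21.8 CPM.

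Zfp42 (Rex1, chr8:43295063-43306980 in mm10, minus strand) encodes a zinc finger protein of the YY1 family and is a widely used reporter of the naive state. Its levels were 136 and 465 CPM in d0 against 18.9 and 10.5 in d3F and 18.9 and 12 in d5FS. The lowest d0 sample thus lay above all 4 differentiated samples, and d3F and d5FS overlapped. The fitted log2 fold change was -4.54 (SE 0.67, edgeR adjusted p = 0.0137) from d0 to d3F and -4.48 (SE 0.67, adjusted p = 0.00441) from d0 to d5FS. It kept 4.9% of its mean d0 CPM in d3F and 5.14% in d5FS, and its change from d3F to d5FS was 0.06 with a 95% interval from -1.29 to 1.41.

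Esrrb and Nr5a2 are orphan nuclear receptors that recognise the same extended half-site. Esrrb (chr12:86361117-86521628), an estrogen-related receptor that holds ESCs in self-renewal, had 38.9 and 192 CPM in d0 against 12.9 and 7.98 in d3F and 10.1 and 14.9 in d5FS. It was high in d0 only, and no differentiated sample reached the lower d0 value. It fell by 3.66 on the log2 scale to d3F (SE 0.75, edgeR adjusted p = 0.0337) and by 3.39 to d5FS (SE 0.74, adjusted p = 0.0159). Without d0 replicate 2 these values were -1.88, which did not pass (adjusted p = 0.0696), and -1.62 (adjusted p = 0.0424), and the call to d3F held in 1 of 6 fits with a sample left out. Nr5a2 (Lrh-1, chr1:136842571-136960448), which activates Oct4, had 9.91 and 23.5 CPM in d0 against 1.27 and 0.919 in d3F and 1.34 and 0.57 in d5FS. All 4 differentiated samples were under 2 CPM in this gene, and they rest on 10 to 29 counts each. Nr5a2 fell by 4.08 to d3F (SE 0.65, adjusted p = 0.0151) and by 4.31 to d5FS (SE 0.66, adjusted p = 0.00481).

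Klf2, Klf4 and Klf5 are zinc finger TFs of the Krüppel-like family with overlapping functions in self-renewal. Klf2 (chr8:72319033-72321656) had 21.2 and 41.0 CPM in d0 against 5.01 and 2.08 in d3F and 2.19 and 2.91 in d5FS. Klf4 (chr4:55527143-55532466), 1 of the original reprogramming factors, had 8.6 and 28.7 CPM in d0 against 3.16 and 1.79 in d3F and 5.23 and 3.82 in d5FS. Klf5 (chr14:99298691-99315036) had 14.8 and 12.8 CPM in d0 against 5.67 and 2.9 in d3F and 5.83 and 5.01 in d5FS. In all 3 genes the d0 samples lay above the rest, and in Klf4 both d5FS samples lay above both d3F samples. All 3 fell from d0 to d3F, Klf2 by 3.30 (SE 0.56, edgeR adjusted p = 0.0178), Klf4 by 3.09 (SE 0.66, adjusted p = 0.0378) and Klf5 by 1.81 (SE 0.41, adjusted p = 0.0461). All 3 also passed the test from d0 to d5FS, with log2 fold changes of -3.76, -2.23 and -1.47 (adjusted p of 0.0047, 0.0374 and 0.0346). Without d0 replicate 2 Klf4 had -1.78 to d3F and -0.92 to d5FS, and neither passed (adjusted p of 0.138 and 0.259 in edgeR). Klf5 lost its call to d3F in all 6 fits with a sample left out (values from -2.25 to -1.46), and also without TMM, with at least 10 counts in every sample and with glmTreat. The d0 to d3F call of Klf5 was also lost with only the groups compared (edgeR adjusted p = 0.0737) and with DESeq2 against a log2 fold change of 1. Its d0 to d5FS call was lost without TMM (edgeR adjusted p = 0.0637), with glmTreat (adjusted p = 0.246) and with DESeq2 against a log2 fold change of 1. With a sample left out, its d0 to d5FS value ranged from -1.53 to -1.4, and the call was lost in most of these fits. Klf5 kept 31% of its d0 mean in d3F and 39.2% in d5FS. Klf2 kept 11.4% and 8.18%. A difference between the changes of Klf5 and Klf2 was not tested.

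Of 14 further Klf genes, 13 were tested and none passed in any of the 3 comparisons between populations. With so few genes this is close to the background shares from d0 to d3F (1.9% lower and 2.8% higher), and a difference from the other 3 was not tested. The background shares were 0.461% lower and 1.08% higher from d3F to d5FS. From d0 to d5FS they were larger, with 10.4% lower and 12.4% higher. With a replicate block Klf8 and Klf9 were called lower from d0 to d3F, and Klf3 lower and Klf11 higher from d0 to d5FS. At an unadjusted p under 0.05, edgeR had 3 lower from d0 to d3F, 2 higher in the second step, and 1 lower and 1 higher by d5FS, and DESeq2 called 1 lower, 1 higher and 1 in each direction. The 13 genes had medians of -0.39 from d0 to d3F and -0.12 from d0 to d5FS, with ranges from -1.36 to 0.89 and from -1.24 to 1.15. The fitted values of Klf2, Klf4 and Klf5 lay below these ranges in both comparisons.

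**Figure D2:**
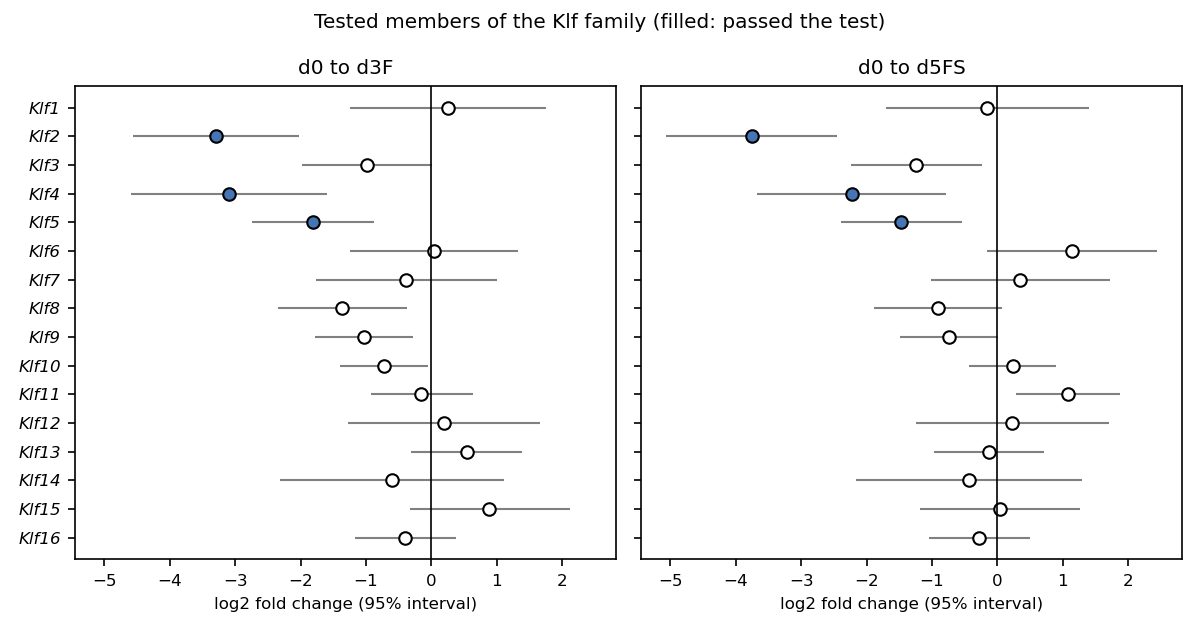
Log2 fold changes (points) with 95% intervals (lines) of the 16 tested Klf genes from d0 to d3F and from d0 to d5FS, with filled points where the test was passed. Klf2, Klf4 and Klf5 are the filled points in both panels, and the other 13 lie between -1.36 and 1.15.

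Tfcp2l1 (chr1:118627945-118685168), a Grainyhead-related TF that acts downstream of LIF and Stat3, had 52.0 and 175 CPM in d0 against 21.3 and 11 in d3F and 55.2 and 36.7 in d5FS. Its d3F samples were the lowest, and its d5FS samples overlapped those of d0. Tfcp2l1 fell from d0 to d3F by 3.0 (SE 0.63, edgeR adjusted p = 0.0353) but did not pass from d0 to d5FS, with a fitted value of -1.50 (SE 0.59, adjusted p = 0.0991). From d3F to d5FS its value was 1.5 (SE 0.60, 95% interval 0.14 to 2.87), with an unadjusted p of 0.0345 and an adjusted p of 0.234 in edgeR, so that the higher d5FS level did not pass. It kept 14.2% of its mean d0 CPM in d3F and 40.5% in d5FS. The d0 to d5FS value of Tfcp2l1 was -0.18 without d0 replicate 2, while it passed at -2.19 without d0 replicate 1 (edgeR adjusted p = 0.00989), with DESeq2 (adjusted p = 0.0242) and without a filter on low counts (adjusted p = 0.000736). Its d0 to d3F value was -1.68 without d0 replicate 2 (adjusted p = 0.0998).

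Nr0b1 (Dax1, chrX:86191764-86195947), a partner of Oct4, Esrrb and Nr5a2, had the widest spread of the group between the d5FS samples. It had 13.6 and 64.4 CPM in d0 against 3.38 and 5.56 in d3F and 2.55 and 21.8 in d5FS. Replicate 2 of d5FS lay above d0 replicate 1, while replicate 1 of d5FS was the lowest of all 6 samples. Without a replicate block Nr0b1 passed in no comparison, with fitted values of -3.28 to d3F (SE 1.07, edgeR adjusted p = 0.123) and -1.83 to d5FS (SE 1.01, adjusted p = 0.215). It was higher in replicate 2 in each population, and with the replicate number as a block it fell by 2.80 to d3F (edgeR adjusted p = 0.0255) and by 1.98 to d5FS (adjusted p = 0.0216). Leaving out d5FS replicate 2 changed its d0 to d5FS value to -4.17 (adjusted p = 0.0607), and leaving out d0 replicate 2 changed it to -0.11. From d3F to d5FS its value turned from 1.45 to -0.90 without d5FS replicate 2.

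Prdm14 (chr1:13113457-13127163), a PR-domain factor that represses Fgf receptor signalling and de novo methylation, was the lowest of the group. It had 1.95 and 11.1 CPM in d0 against 0.791 and 0.629 in d3F and 0.365 and 0.285 in d5FS. Its d5FS levels are the lowest of the 3 populations and rest on 6 and 5 counts, so their size is poorly determined. From d0 to d3F Prdm14 had a log2 fold change of -3.37 that missed the threshold (SE 0.87, edgeR adjusted p = 0.0651), and from d0 to d5FS it fell by 4.50 (SE 0.95, adjusted p = 0.0142). To d3F it passed with DESeq2 (adjusted p = 0.000824), without a filter on low counts (adjusted p = 7.81e-06) and without d0 replicate 1 (-4.17, adjusted p = 0.00575). Without d0 replicate 2 its values were -1.42 to d3F and -2.56 to d5FS, and neither passed (adjusted p of 0.376 and 0.0589 in edgeR).

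Tcl1 (chr12:105216750-105222793) had 5.66 and 21.4 CPM in d0 against 1.14 and 1.02 in d3F and 2.67 and 2.11 in d5FS. As in Klf4 and Tfcp2l1, both d5FS samples were above both d3F samples. Tcl1 fell by 3.81 to d3F (SE 0.72, edgeR adjusted p = 0.0264) and by 2.69 to d5FS (SE 0.68, adjusted p = 0.0259). Without d0 replicate 2 the values were -2.35 and -1.24, and neither passed (adjusted p of 0.0764 and 0.163 in edgeR). The mean transcript length that RSEM assigned to Tcl1, which has 5 annotated transcripts in the tables, varied between 1306 and 1431 bases over the samples. Esrrb, with 2 transcripts, varied between 4199 and 4218 bases, and the other 8 genes did not vary.

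In the second step, from d3F to d5FS, 0 of the 10 genes passed in edgeR and 0 in DESeq2, and 1 (Tfcp2l1) had an unadjusted p under 0.05 in edgeR. Among all tested genes 0.461% were called lower and 1.08% higher. The 10 values ranged from -1.13 (Prdm14) to 1.5 (Tfcp2l1) with a median of 0.30. Klf4, Tfcp2l1 and Tcl1 were higher in d5FS with no overlap of samples, which 27.1% of tested genes were, and Prdm14 was lower with no overlap (background 24.5%). All 10 intervals included changes beyond 1 in size in at least 1 direction, so these samples do not show that levels stayed the same.

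The sizes of both steps were compared by setting d3F against the mean of d0 and d5FS. This contrast is negative wherever the first step is the more negative of the 2, also in genes such as Klf2, Nr5a2 and Prdm14 whose second step is negative too, so it does not test a turn. It was negative for all 10 genes, between -2.47 (Tcl1) and -1.07 (Klf5). With edgeR 0 of 10 passed (background 0.0825% lower), although 9 of 10, all but Prdm14, had an unadjusted p under 0.05. With DESeq2 6 of 10 passed, namely Zfp42, Klf4, Esrrb, Tfcp2l1, Nr5a2 and Tcl1. DESeq2 called 265 of 21376 genes lower in this contrast, where edgeR called 12 of 14539. The unequal size of the 2 steps is therefore called or not depending on the test.

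**Figure D3:**
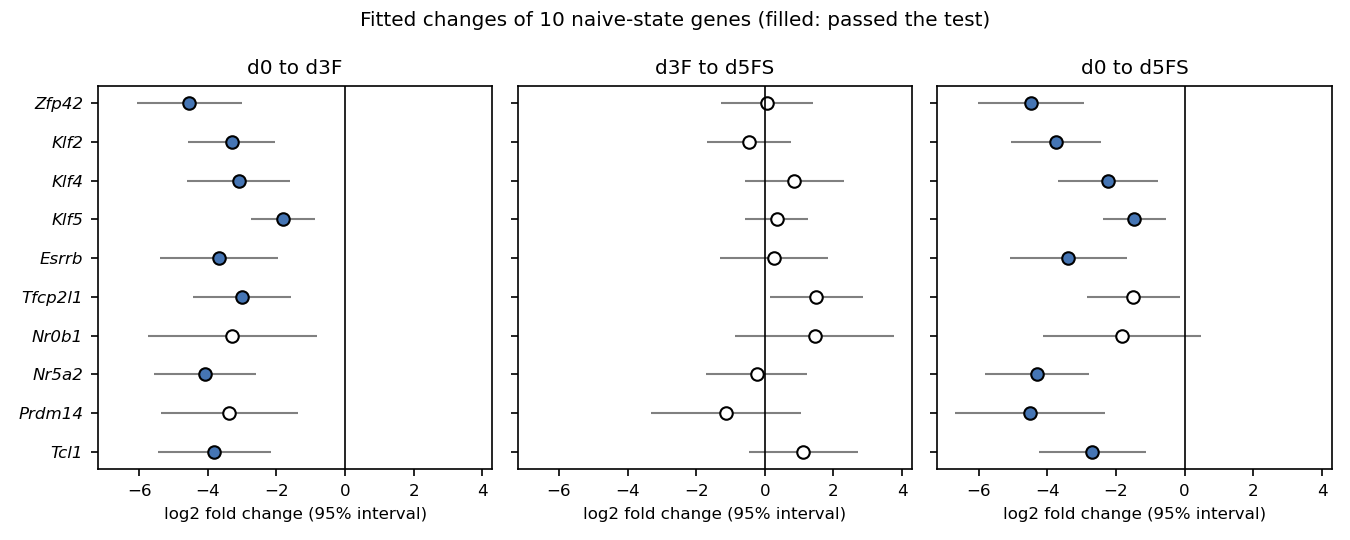
Log2 fold changes (points) and 95% intervals (lines) of the 10 genes in the 3 comparisons between populations, with filled points where the edgeR test was passed. Values lie left of 0 for all genes from d0 to d3F and from d0 to d5FS, whereas from d3F to d5FS every point is open and they range from -1.13 to 1.5.

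The calls from d0 changed when a library was left out, also a d5FS library, which the d0 to d3F comparison does not contain. A left-out library also leaves fewer samples to estimate the spread, and its part in the lost calls was not tested. The number of all genes called moved as well, as given below. From d0 to d3F the number of genes called was 9 without d0 replicate 1, 2 without d0 replicate 2 (Zfp42 and Nr5a2), 2 without d3F replicate 1 (Zfp42 and Klf2), 0 without d3F replicate 2 (10 with an unadjusted p under 0.05), and 3 without either d5FS replicate (Zfp42, Klf2 and Nr5a2). From d0 to d5FS it was 4 without d0 replicate 2, 3 without either d5FS replicate, and 8 in each fit without d0 replicate 1 or without either d3F replicate. Zfp42, Klf2 and Nr5a2 kept their call from d0 to d5FS in each of these 6 fits. The sign was negative for all 10 genes in both comparisons in every such fit.

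The level of these genes differed between the d0 samples. On the log2 scale of TMM-normalized CPM, d0 replicate 2 was higher in all 10 genes, with a median difference of 2.0 and a range from 0.02 in Klf5 to 2.68 in Prdm14. The size of the difference depended on the scale. By plain CPM 9 of 10 genes were higher in replicate 2 (median log2 ratio 1.76), with Klf5 lower at 12.8 against 14.8. By TPM 9 of 10 were higher as well, but the median was 0.91 and 4 genes reached a log2 ratio of 1, and Klf2 had 8.35 and 8.9 TPM. In 9 of the 10 the TMM-normalized difference was at least 1, whereas 9.47% of all tested genes were higher by that much in d0 replicate 2. The same difference between replicates had a median of -0.57 in d3F, where replicate 2 was lower in 8 of 10 genes. In d5FS the median was -0.21 with 1 gene (Nr0b1, 3.15) at least 1 higher. With 1 sample on each side this is a description of libraries and has no test.

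Other gene lists separated the d0 samples in their own ways. Of 12 tested further genes of the naive state, 8 were at least 1 higher in d0 replicate 2 (median 1.48), while the 8 core and general pluripotency genes had a median of 0.11. These core genes went both ways, from 2.04 in Nanog to -1.11 in Utf1, with 4 of the 8 higher in replicate 2. Of 11 formative and primed genes, 5 were at least 1 lower in replicate 2 (median -0.80). The share of all tested genes lower by that much was not computed. In the same list 3 genes were higher in replicate 2, namely Etv4 (0.99), Dnmt3a (0.37) and Sox3 (0.15). Fgf5, Pou3f1 and Otx2 had the largest differences of the list (-3.31, -2.75 and -2.17). Fgf5, an FGF ligand of the postimplantation epiblast, had 12.9 CPM in d0 replicate 1 and 1.03 in replicate 2. Otx2, a homeodomain TF of the same stage, had 29.5 and 5.53 CPM, and Pou3f1 (Oct6) had 78.9 and 9.88. The mesendoderm markers T, Eomes, Mixl1 and Gsc summed to 32.6 CPM in replicate 1 and 10.1 in replicate 2. Markers of two-cell-like cells, a rare ESC subset defined by Zscan4 genes, summed to 7.01 and 113 CPM, and all 10 had at least 1 count in each d0 sample. Zscan4 copies are nearly identical, so the split of reads among them is uncertain. The part of these differences in the values of the 10 genes was not tested.

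**Figure D4:**
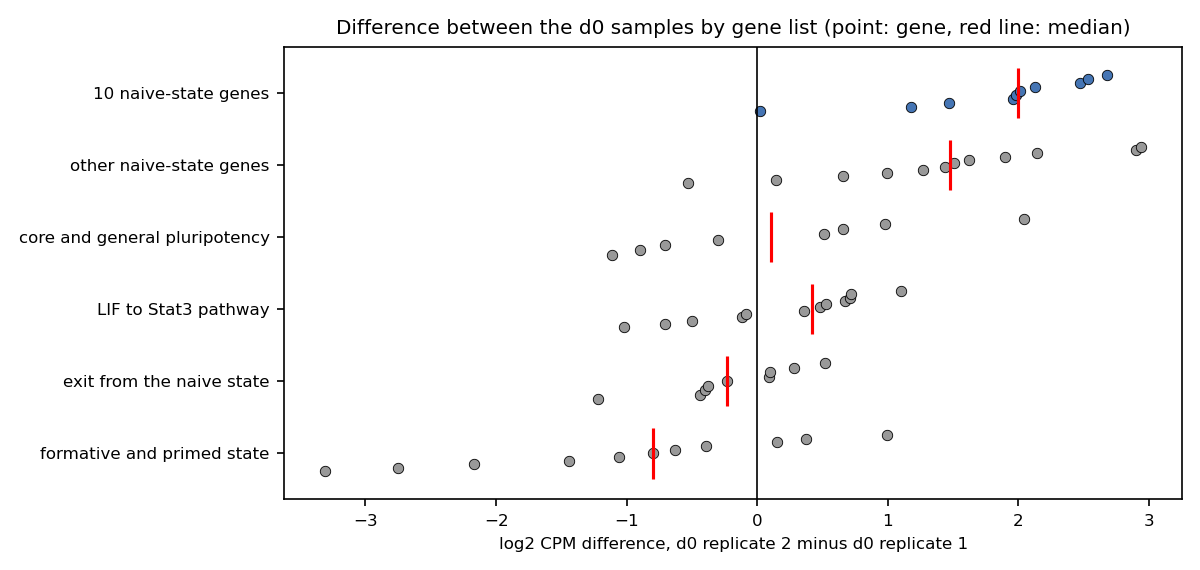
Difference in log2 CPM (TMM-normalized) between d0 replicate 2 and d0 replicate 1, with 1 point per tested gene, 1 row per gene list and a red line at the median of the list. The 10 naive-state genes lie between 0.02 and 2.68 with a median of 2.0, and the formative and primed genes have a median of -0.80.

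Levels of different genes were compared in TPM. In d0 the order of the means was Zfp42 (77.9), Esrrb (11.5), Nr0b1 (9.8), Klf2 (8.62), Tfcp2l1 (5.22), Tcl1 (4.72), Klf5 (4.57), Klf4 (2.73), Nr5a2 (2.12) and Prdm14 (1.07). The ranges of the 2 samples overlapped in 6 of the 9 neighbouring pairs, and the steps below Zfp42, Klf2 and Nr5a2 were those without overlap. Zfp42 was first in 5 of 6 samples and second, after Nr0b1, in d5FS replicate 2. In d3F and d5FS 7 of 9 neighbouring pairs overlapped, so that much of the order is not resolved there. Mean TPM of the 10 genes in d5FS ran from 0.055 (Prdm14) to 3.64 (Zfp42). In every sample 1 short noncoding RNA took between 18.1% and 33% of all TPM (Rmrp in 5 samples, Snord22 in d5FS replicate 2), which sets the scale of the TPM of all other genes.

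The wider pathway was described with lists of fixed members. Of 15 further naive-state genes 12 were tested, 9 fell from d0 to d3F and 10 from d0 to d5FS, with medians of -3.99 and -3.73. Among all tested genes 1.9% were called lower from d0 to d3F and 10.4% from d0 to d5FS. Gbx2, a homeobox TF induced by LIF, had 8.42 and 19.6 CPM in d0 and at most 0.395 in the other 4 samples. Dppa2, a chromatin factor of early embryos, fell by 5.08 to d3F (SE 0.50, edgeR adjusted p = 0.00463). From d3F to d5FS none of the 12 passed in edgeR or DESeq2, and 0 had an unadjusted p under 0.05.

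The 8 core and general pluripotency genes had medians of -1.17 in the first step, -1.30 in the second and -3.72 over both. Sox2 and Fgf4 fell in the first step, Pou5f1 and L1td1 in the second, and 6 of the 8 were lower by d5FS. The shares of all tested genes called lower in these comparisons were 1.9%, 0.461% and 10.4%. Pou5f1, the gene of Oct4, had 891 and 1200 CPM in d0 against 751 and 352 in d3F and 56.7 and 43.4 in d5FS. In the first step its value of -1.07 did not pass (SE 0.40, edgeR adjusted p = 0.175), and it fell by 3.46 from d3F to d5FS (SE 0.44, adjusted p = 0.0174). L1td1, an RNA-binding protein of ESCs, fell by 3.90 in the second step (SE 0.64, adjusted p = 0.0309). The 10 naive-state genes had medians of -3.33 and 0.30 in the same steps, and the difference between the lists was not tested. Sox2 and Fgf4 were named after their values were seen.

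Of 12 genes of the LIF to Stat3 pathway, Pim1, a kinase gene induced by Stat3, fell from d0 to d3F (log2 fold change -1.94, SE 0.45, edgeR adjusted p = 0.0491) and was lower in d5FS (-1.69, adjusted p = 0.0291). Jak2, a kinase of cytokine receptors, rose from d0 to d5FS by 2.04 (SE 0.47, adjusted p = 0.0184). The medians of the list were -0.34 from d0 to d3F and -0.10 from d0 to d5FS. No other gene of the list passed in these comparisons. With so few genes, 1 lower and 1 higher by d5FS is close to the shares of all tested genes (10.4% and 12.4%). From d0 to d3F 1.9% of all tested genes were called lower. Of 11 formative and primed genes, Fgf5 rose by 4.14 (SE 0.88, adjusted p = 0.0373) and Otx2 by 2.92 (SE 0.67, adjusted p = 0.0491, or 0.0505 with a replicate block) from d0 to d3F. Of all tested genes 2.8% were called higher from d0 to d3F. The study also counts Otx2 among TFs related to mesendoderm and endoderm. Otx2 had 108 and 159 CPM in d3F and 268 and 432 in d5FS. From d0 to d5FS Fgf5, Otx2 and Sox4 rose, and Pou3f1, Lef1, Dnmt3a and Etv4 fell. In the same comparison 12.4% of all tested genes were called higher and 10.4% lower. Sox4, Dnmt3a and Etv4 were named after their values were seen. Pou3f1 fell by 4.21 in that comparison (SE 1.05, adjusted p = 0.0247), and Lef1, a TF of Wnt signalling, fell by 1.75 (SE 0.54, adjusted p = 0.0499).

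None of the 9 genes for the exit from the naive state (among them Tcf7l1, Zfp281 and Flcn) passed in any comparison between populations in edgeR. At an unadjusted p under 0.05, 1 was lower in d3F than in d0, 0 differed in the second step, and 3 were lower in d5FS than in d0. DESeq2 called 1 lower from d0 to d3F and 0 in the other comparisons, and a replicate block called 1 (Rbpj) lower from d0 to d3F. With 9 genes, no edgeR call is close to the shares of all tested genes from d0 to d3F (1.9% lower and 2.8% higher). The shares from d0 to d5FS were larger, with 10.4% lower and 12.4% higher. Of 17 paralogs of the other 7 genes, 10 were tested, and Grhl1 and Grhl2, epithelial TFs related to Tfcp2l1, fell from d0 to d5FS by 3.07 (SE 0.53, edgeR adjusted p = 0.0071) and 2.05 (SE 0.45, adjusted p = 0.0156). The paralogs had a median of -0.28 from d0 to d3F and 0.17 from d0 to d5FS. With so few genes, 2 of 10 called lower by d5FS is close to the 10.4% of all tested genes.

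The 10 genes were compared with each other and with all genes over the 6 samples, by Pearson's r of log2 CPM. These values describe 3 populations of 2 replicates with a large gap between d0 and the rest, so many genes that fall reach a high r. Over the 45 pairs the median r was 0.892, the highest was 0.991 (Zfp42 and Nr5a2), and 22 pairs were above 0.9. Against the mean of the other 9 genes, Esrrb had the highest r (0.988), and Tfcp2l1 (0.862) and Nr0b1 (0.763) had the lowest. Among 3465 other genes that averaged 10 TPM or more in d0, the 5 closest to the mean of the group were Ooep (0.9983), Mylpf (0.9931), Fbxo15 (0.9918), Dppa5a (0.9878) and Mybl2 (0.9858). Ooep had 20.4 and 109 CPM in d0 against 3.51 and 1.74 in d3F and 3.65 and 3.08 in d5FS, including the higher level in d0 replicate 2.

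Promoter sequence was read because several of the 10 genes encode factors with known motifs. RefSeq promoters of GRCm38.p6, 250 bases before to 50 after the start, were given for 8 of the 10 genes (10 promoters, with 2 each for Esrrb and Nr5a2). Klf5 and Prdm14 had no entry. Motifs were searched on both strands over 32851 promoters. The half-site TCAAGGNCA of Esrrb and Nr5a2 was in the Zfp42 promoter and in 1.62% of all promoters. The Klf motif GGGNGTGG was in the promoters of Tfcp2l1 and Zfp42 and in 1 of the 2 of Nr5a2 (17.6% of all). That Nr5a2 promoter (chr1:136953581-136953880) lies inside the annotated span of the gene. The Stat motif TTCNNNGAA was in 1 of the 2 Esrrb promoters (8.3% of all). The octamer ATGCAAAT was in the Zfp42 promoter (1.74% of all). The Tfcp2l1 motif, CCAG repeated after a gap of 6 bases, was in none of the 10 and in 3.44% of all promoters. A match is a description of letters, not a shown site. The stretches that hold the matches follow, 5′ to 3′ on the strand of the gene, with the match in capitals. The matches to the Klf motif in Zfp42 and Tfcp2l1 and to the octamer are on the opposite strand and appear as the reverse complement.
Zfp42 half-site, chr8:43307208-43307237, minus strand: tgactgagtcTCAAGGCCAggcgatcggga
Zfp42 octamer, chr8:43307177-43307206, minus strand: tctgaagaggcATTTGCATaactgagcaag
Zfp42 Klf motif, chr8:43307066-43307095, minus strand: cacatccccgcCCACACCCaccttgagcgc
Nr5a2 Klf motif, chr1:136953769-136953798, minus strand: gctccgggtgaGGGCGTGGagcccaggaag
Tfcp2l1 Klf motif, distal, chr1:118627873-118627902, plus strand: ccctgcaataaCCACGCCCctaatgccacg
Tfcp2l1 Klf motif, proximal, chr1:118627887-118627916, plus strand: cgcccctaatgCCACGCCCacctgacggcc
Esrrb Stat motif, chr12:86360929-86360958, plus strand: aacggaaactTTCGTGGAAagcacttgagc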

How the data were processed

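The authors depleted ribosomal RNA, prepared TruSeq libraries that do not keep strand, sequenced paired ends and used STAR for alignment against mm10. The study's methods give 1 preparation for all populations, whereas its sample list uses the words mRNA and total RNA, as stated above. The authors deposited RSEM expected counts per gene, which are estimates and not normalized, and the deposited TPM values are scaled for effective length by RSEM to 1 total per sample. The deposited lengths and effective lengths are those RSEM used. Versions of STAR and RSEM are not given in the sources used here. Groups were taken from the sample labels.

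Expected counts were rounded to whole numbers and fitted with edgeR 4.0.16 in R 4.3.3 (filterByExpr, TMM, glmQLFit with 3 residual degrees of freedom, all 6 samples, prior count 0.125). Standard errors were derived from the fold change and the F statistic (size over root F). A call required a size beyond 1 on the log2 scale together with Benjamini-Hochberg adjustment to p under 0.05. Normalized log2 CPM used a prior count of 2. Alternatives were DESeq2 1.42.0 (Wald test, also against a log2 fold change of 1, and its size factors), no TMM, other filters, edgeR glmTreat, a replicate block, the compared groups alone, each sample left out in turn, and TPM rescaled by TMM. An exact permutation test of 2 against 2 samples cannot go below p = 0.33 and was not run. The fit was tested on simulated counts, in which it found most strong changes and more than the nominal share of its calls were false. Same-numbered replicates deviated together from their population means in all 3 pairs of populations (r of 0.314, 0.324 and 0.278 across genes), so results with the number as a block are given where they change a call. The labels state no shared batch behind the numbers. Figures and promoter searches used Python 3.11.15 and matplotlib 3.10.9. Positions of genes come from GENCODE M21 (mm10).

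The 10 genes and the lists were chosen with earlier results of these data known. Of each list, up to 2 called genes per direction were named, by size of the d0 to d5FS change, and for likeness the 5 with the highest r.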

Additional observations from a re-analysis of the deposited data

How the results depend on the processing

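Of 586 refitted log2 fold changes of the 10 genes, 480 kept their sign and their side of the threshold, 67 no longer passed, 32 newly passed and 7 reversed sign. The cause of changes under other settings was not tested. A left-out library also leaves fewer samples, with the lone sample assumed to vary like the other groups. The part of this in the changed calls was not tested either. All 7 reversals were from d3F to d5FS, where nothing had passed: Klf2 at 0.18 without d3F replicate 1, Zfp42 at -0.24 without d3F replicate 2 and -0.25 without d5FS replicate 1, Klf5 at -0.0041 without d3F replicate 2, and Esrrb at -0.10, Nr0b1 at -0.90 and Nr5a2 at 0.22 without d5FS replicate 2. With a sample left out, these ranged from -0.90 to 0.18 (Klf2), -0.25 to 0.43 (Zfp42), -0.0041 to 0.78 (Klf5), -0.10 to 0.55 (Esrrb), -0.90 to 2.29 (Nr0b1) and -0.91 to 0.22 (Nr5a2).

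From d0 to d3F, 8 of 10 were called in edgeR, 3 with glmTreat, 3 with only the groups compared, and 0 to 9 with a sample left out. From d0 to d5FS, 8 were called, 5 with glmTreat, 5 with DESeq2 against a log2 fold change of 1, and 3 to 8 with a sample left out. From d3F to d5FS, 0 were called, 2 (Tfcp2l1 and Nr0b1) without a filter on low counts, and 0 in all 6 fits with a sample left out. For d3F against the mean of d0 and d5FS, 0 were called, 8 without a filter, 6 with DESeq2, and 0 to 5 with a sample left out. DESeq2 size factors changed no call. Without TMM the median of all genes moved from -0.01 to 0.09 from d0 to d3F and from 0.02 to 0.13 from d0 to d5FS, and 7 and 6 of the 10 genes were called. The median TPM of the 10, taken in each d5FS sample and averaged, was 0.815, and 0.934 after rescaling by TMM. Of the 5 genes closest to the group, 2 were also among the closest 5 on log2(TPM + 1).

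The number of all genes called moved more. From d0 to d3F it was 683, with 1933 without a filter, 357 with at least 10 counts in every sample, 1477 with DESeq2, 377 with DESeq2 against a log2 fold change of 1, 242 with glmTreat, 430 with only the groups compared and 97 to 977 with a sample left out. From d3F to d5FS it was 224, with 135 without TMM, 1423 without a filter, 144 with at least 10 counts, 1065 with DESeq2, 70 with glmTreat, 529 with only the groups compared and 0 to 496 with a sample left out. From d0 to d5FS it was 3313, with 996 with DESeq2 against a log2 fold change of 1, 1235 with glmTreat and 1047 to 3037 with a sample left out. For d3F against the mean of the others it was 60, with 23 without TMM, 896 without a filter, 12 with at least 10 counts, 572 with DESeq2, 12 with glmTreat and 0 to 208 with a sample left out.

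With a replicate block, 1320 genes passed in the first step, 918 in the second and 172 for d3F against the mean of the others. Of the 10 naive-state genes 9 were then called from d0 to d3F and 9 from d0 to d5FS, with Nr0b1 added to each 8. Beside the calls given with the results, the block added Utf1, Jak2, Pim3, Zic2, Sox3, Grhl1 and Grhl2 from d0 to d3F, Utf1, Pou3f1, Zic2 and Grhl3 from d3F to d5FS, Grhl3 and Mtcp1 from d0 to d5FS, and Dppa2, Dppa3 and Zic2 for d3F against the mean of the others, and it changed no other call of the listed genes. With Prdm14 at 5 and 6 counts in d5FS, depth limits how well the size of its change is known.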
